A study of Homo sapiens with 17 samples.

Results

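The 37 genes described here encode the integrin subunits and the laminin chains. They were chosen by family, and the peaks of each list were assigned to a gene when the peak summit lay within 50 kb of the gene's RefSeq span on GRCh38.p14. They make up 37 of the 19974 protein-coding genes placed on chromosomes 1 to 22 and X. The measurement was chromatin immunoprecipitation with a Flag antibody followed by sequencing (ChIP-seq) in U2OS, an established human osteosarcoma line. Each of 8 stable U2OS lines expressed a different Flag-tagged protein from a Tet-on cassette, with doxycycline at 500 ng/ml for 4 days. The proteins were FOXA1, FOXA2 and FOXA3 at full length, the same 3 with the C-terminal domain (CTD) deleted, SOX2 at full length, and SOX2 fused to the FOXA2 CTD. Each line had 2 biological replicates, 1 input sample came from U2OS, and the authors deposited 1 combined peak list per line, so no group has replicate lists to compare.

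Integrins are heterodimers of an alpha and a beta subunit that tie cells to the extracellular matrix or to other cells. Laminins are heterotrimers of an alpha, a beta and a gamma chain that form the sheet of basement membranes and are themselves integrin ligands. Mesenchymal cells use collagen, fibronectin and laminin receptors built on ITGB1 and ITGAV, whereas ITGB2 and ITGB7 and their partners are known from leukocytes. FOXA proteins are forkhead factors that can bind their sites in closed chromatin, and SOX2 is an HMG-box factor of pluripotent and neural cells. Groups were set apart from textbook knowledge, with earlier results of these data known. The 12 mesenchymal members were ITGA1, ITGA2, ITGA3, ITGA5, ITGA11, ITGAV, ITGB1, ITGB5, LAMA4, LAMB1, LAMB2 and LAMC1. The 7 leukocyte members were ITGAD, ITGAE, ITGAL, ITGAM, ITGAX, ITGB2 and ITGB7. ITGA4, which pairs with ITGB7 as well as ITGB1, was placed in neither group. Expression was not measured in these samples, so the names describe where the genes are usually active and not their activity in these lines.

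The lists differed greatly in length, from 1375 peaks for SOX2 to 53415 for CTD-deleted FOXA2. They were also cut at different limits of the irreproducible discovery rate (IDR), from 0.01 for CTD-deleted FOXA3 to 0.912 for the SOX2 fusion. The full-length and CTD-deleted FOXA1 lists ended at 0.200 and 0.0501, and the FOXA2 lists at 0.350 and 0.251. Of the 6130 rows in the full-length FOXA3 list, 5012 were also present, value for value, in the CTD-deleted FOXA3 list, including all 10 at the members. The number of sequenced reads behind each list is unknown here. Intervals below are 95% intervals for the counting of peaks. They do not cover the spread between replicates or between the genes of a group.

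Member windows held 108 peaks of full-length FOXA1, 141 of CTD-deleted FOXA1, 126 of full-length FOXA2 and 133 of CTD-deleted FOXA2. They held 10 and 12 peaks of full-length and CTD-deleted FOXA3, 2 of SOX2 and 23 of the fusion. At least 1 full-length FOXA1 peak lay near 32 of the 37 members, where 71.5% of all protein-coding genes had one. The other FOXA counts were 31 for CTD-deleted FOXA1 (69.8% of all genes), 28 for full-length FOXA2 (74.2%), 35 for CTD-deleted FOXA2 (76.1%), 9 for full-length FOXA3 (24.2%) and 10 for CTD-deleted FOXA3 (27.3%). SOX2 had a peak near 2 members (0.891% of all genes) and the fusion near 14 (25.6%). As a whole the members had a peak density close to that of all genes in the FOXA1 and FOXA2 lists: the ratio was 1.11 (0.910 to 1.34), 1.16 (0.977 to 1.37), 1.10 (0.915 to 1.31) and 0.976 (0.817 to 1.16) in the order above.

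**Figure D1:**
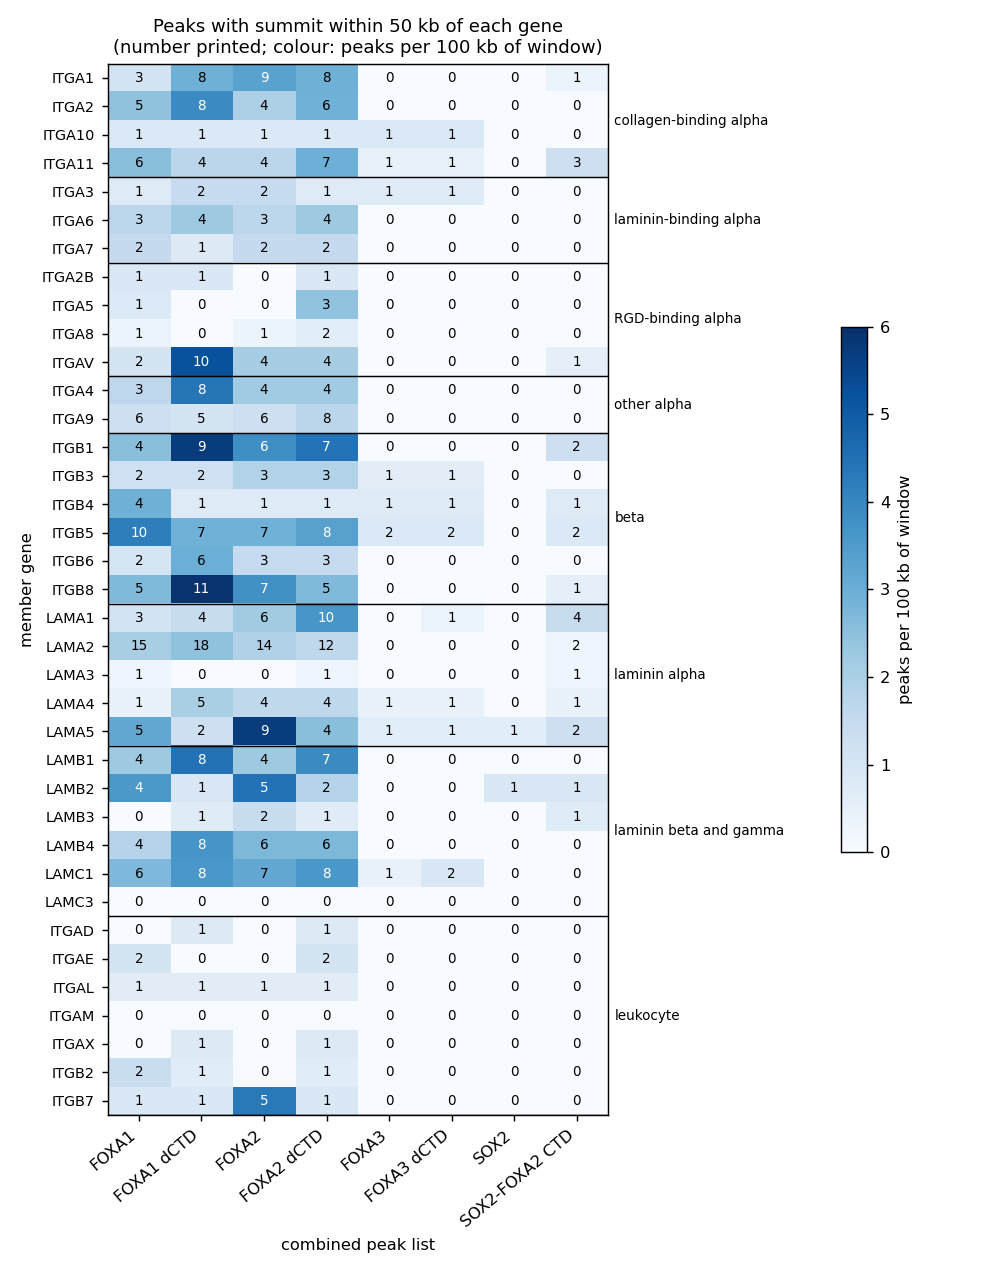
Number of peaks with a summit within 50 kb of each of the 37 genes (rows, grouped by role) in each of the 8 combined lists (columns); the colour gives peaks per 100 kb of window. LAMA2 has the highest counts, 12 to 18 in the FOXA1 and FOXA2 lists, over a window of 733 kb, and ITGAM and LAMC3 have 0 in every list.

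The collagen receptors had peaks of FOXA1 and FOXA2 at every gene. ITGA1 and ITGA2, which pair with ITGB1 to bind collagens, are neighbours on chromosome 5 and share part of their windows. ITGA2 had the highest density of the class, with 5 peaks of full-length FOXA1, 8 of CTD-deleted FOXA1, 4 of full-length FOXA2 and 6 of CTD-deleted FOXA2, or 11.2 peaks per 100 kb summed over these 4 lists. ITGA1 had 3, 8, 9 and 8 peaks in the same order and ITGA11, a fibrillar collagen receptor of fibroblasts, had 6, 4, 4 and 7. ITGA10, a collagen receptor of cartilage cells, was lowest with 1 peak in each of the 4 lists (3.37 per 100 kb), and that peak was the same site in all 4.

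Among the laminin receptors ITGA6 was highest and ITGA3 lowest. ITGA6, which pairs with ITGB1 or ITGB4, had 3, 4, 3 and 4 peaks in the FOXA1 and FOXA2 lists (full length then CTD-deleted, FOXA1 first), or 7.82 per 100 kb. ITGA3 had 1, 2, 2 and 1 (4.47 per 100 kb), and ITGA7, the laminin receptor of muscle, had 2, 1, 2 and 2. The fibronectin and vitronectin receptors, which recognise the tripeptide RGD, differed more among themselves. ITGAV had 2, 10, 4 and 4 peaks, 10.5 per 100 kb, while ITGA8, a receptor for nephronectin, had 1, 0, 1 and 2 over a window of 306 kb, 1.31 per 100 kb. ITGA5, the alpha subunit of the classical fibronectin receptor, had 1, 0, 0 and 3 peaks, none of them inside the gene. The platelet subunit ITGA2B had 1, 1, 0 and 1. Of the other alpha subunits, ITGA4, which pairs with ITGB1 or ITGB7, had 3, 8, 4 and 4 peaks (10.5 per 100 kb) and ITGA9 had 6, 5, 6 and 8 over a longer window (5.30 per 100 kb).

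The beta subunits had more FOXA1 peaks per length than any other class, 2.5 per 100 kb for full-length FOXA1 and 3.33 for CTD-deleted FOXA1. ITGB1, the partner of most matrix-binding alpha subunits, had the highest summed density of all members, 16.5 per 100 kb, from 4, 9, 6 and 7 peaks. ITGB8, which with ITGAV activates latent TGF-beta, had 5, 11, 7 and 5 (15.1 per 100 kb), and ITGB5, a vitronectin receptor subunit, had 10, 7, 7 and 8 (13.4 per 100 kb). ITGB4, the laminin receptor subunit of hemidesmosomes, was lowest with 4, 1, 1 and 1 (5.13 per 100 kb), below ITGB3 with 2, 2, 3 and 3 and the epithelial subunit ITGB6 with 2, 6, 3 and 3. Per length, ITGB1, ITGB5 and ITGB8 stood above these 3 in both FOXA2 lists. In the FOXA1 lists the order was mixed: for full-length FOXA1 ITGB4 had 2.93 peaks per 100 kb against 2.53 at ITGB1, and for CTD-deleted FOXA1 ITGB6 had 2.99 against 2.92 at ITGB5.

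The strongest full-length FOXA2 and CTD-deleted FOXA2 peaks at any member were the same site in the ITGB1 window. Strength is given here as the lower of the −log10 p-values that the authors' list records for the 2 replicates. This site, chr10:32864794-32866565, lies inside CCDC7, with summits 34418 bases or more from the 3′ end of ITGB1, and had a strength of 9.08 for full-length FOXA2 and 15.3 for CTD-deleted FOXA2. It was also called for FOXA1 at 3.48 (full length) and 9.08 (CTD-deleted). The strongest CTD-deleted FOXA1 peak at a member, 20.1 at chr3:124736902-124737800, lay in the ITGB5 window but inside the neighbouring gene UMPS. A window of 50 kb therefore assigns to these members sites that sit in other genes, and the files do not tell which gene a site serves.

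Leukocyte members had few peaks. ITGAM, an alpha subunit of the complement receptor of myeloid cells, had 0 peaks in all 8 lists. ITGAL, the alpha subunit of LFA-1, had 1 peak in each FOXA1 and FOXA2 list, of which 3 marked a common site at chr16:30437277-30438097, outside coding genes and 34879 bases or more from ITGAL. The myeloid subunits ITGAX and ITGAD, which are neighbours, had only 1 peak of CTD-deleted FOXA1 and 1 of CTD-deleted FOXA2, both at 1 site between them. ITGAE, which pairs with ITGB7 to bind E-cadherin, had 2 peaks of full-length FOXA1 and 2 of CTD-deleted FOXA2, all inside the gene. ITGB2, the common beta subunit of LFA-1 and the complement receptors, had 2, 1, 0 and 1 peaks, of which 1 of full-length FOXA1 and 1 of CTD-deleted FOXA2 lay in the gene. ITGB7, which guides lymphocytes to the gut, stood apart with 1, 1, 5 and 1, and its 5 peaks of full-length FOXA2 were 5 of the 6 at all leukocyte members. Those 5 had strengths of 1.69 to 2.38 and all lay outside ITGB7. No FOXA3, SOX2 or fusion peak lay near any of the 7 leukocyte genes.

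The mesenchymal members had a higher peak density than the leukocyte members in each FOXA1 and FOXA2 list. For full-length FOXA1 the mesenchymal windows held 47 peaks, 2.09 per 100 kb, against 6 peaks and 0.696 per 100 kb in the leukocyte windows, a ratio of 3.00 (1.28 to 8.59). For CTD-deleted FOXA1 they held 68 against 4 peaks, 3.02 against 0.464 per 100 kb, a ratio of 6.52 (2.43 to 24.6). The ratio was 3.51 (1.52 to 9.99) for full-length FOXA2, from 55 and 6 peaks, and 4.02 (1.75 to 11.4) for CTD-deleted FOXA2, from 63 and 6. All 4 intervals lay above 1, and they overlapped one another. They take each peak as independent, although the 7 leukocyte genes make up only 5 windows. The summed density of the mesenchymal members ran from 3.23 per 100 kb at ITGA5 to 16.5 at ITGB1, a spread that the intervals do not include. ITGA4, a partner of ITGB7 with 3, 8, 4 and 4 peaks in these lists, was not counted as a leukocyte member. Its 8 CTD-deleted FOXA1 peaks exceed the 4 at all leukocyte members, and ratios with ITGA4 in the leukocyte group were not computed. With windows of 10 kb the full-length FOXA1 interval reached below 1 (ratio 2.54, 0.894 to 9.92). In the shorter lists the mesenchymal windows held 6 and 7 FOXA3 peaks, 1 SOX2 peak and 11 fusion peaks, against 0 in the leukocyte windows. For a count of 0 the exact interval in the leukocyte windows reaches 0.428 peaks per 100 kb. The fusion had 0.489 per 100 kb (0.244 to 0.875) at mesenchymal members, and the interval of its ratio starts at 0.962. No difference between the groups was thus detectable at these peak numbers for the fusion, FOXA3 or SOX2.

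**Figure D2:**
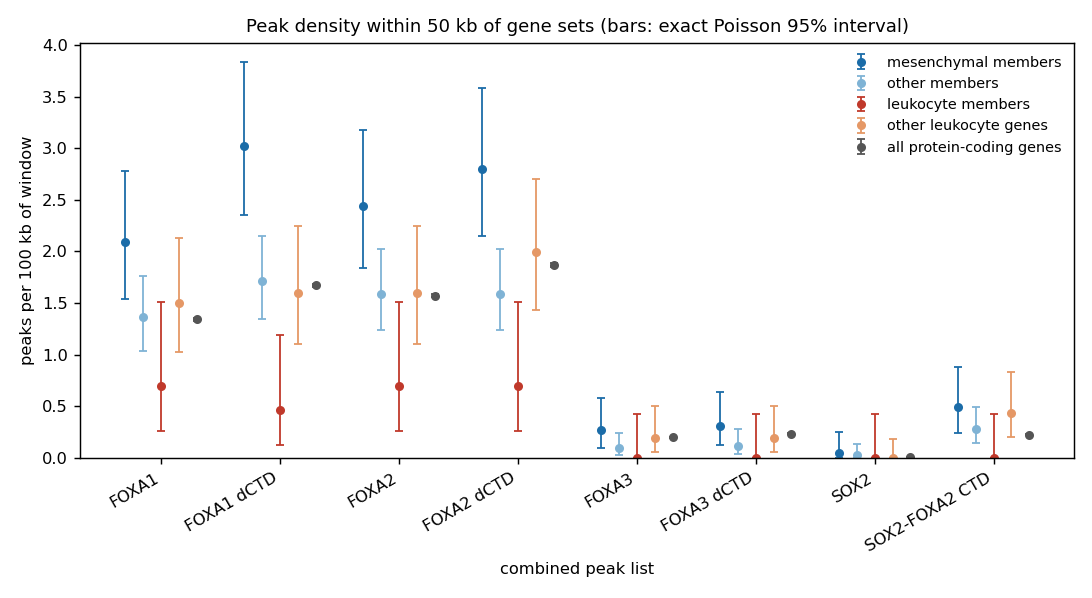
Peaks per 100 kb of window (vertical axis) in each combined list (horizontal axis) for 5 gene sets; points are densities and bars exact Poisson 95% intervals. In the FOXA1 and FOXA2 lists the mesenchymal members lie at 2.09 to 3.02 and the leukocyte members at 0.464 to 0.696, with all protein-coding genes between at 1.34 to 1.87.

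Both groups were also set against all protein-coding genes. The mesenchymal members had 1.56 (1.15 to 2.08), 1.81 (1.41 to 2.30), 1.55 (1.17 to 2.02) and 1.50 (1.15 to 1.92) times the density of all genes in the FOXA1 and FOXA2 lists. The leukocyte members had 0.521 (0.191 to 1.13), 0.278 (0.0758 to 0.713), 0.442 (0.162 to 0.962) and 0.372 (0.136 to 0.809) times that density. For comparison, 18 other leukocyte genes, among them PTPRC, CD4 and SPI1, had 1.50, 1.60, 1.60 and 1.99 peaks per 100 kb in the same lists. The leukocyte members had 0.463 (0.158 to 1.13), 0.290 (0.0746 to 0.815), 0.435 (0.149 to 1.05) and 0.350 (0.121 to 0.829) times the density of these 18 genes, and the interval lay below 1 in both CTD-deleted lists and reached above 1 in both full-length lists. Leukocyte windows were rich in genes, with 3.59 coding genes per 100 kb against 1.78 at the mesenchymal members and 3.78 at the 18 other leukocyte genes. The leukocyte genes were also shorter, with a median of 42.9 kb against 98.1 kb, and the part of gene density and gene length in the result was not tested. The remaining 18 members had 1.36, 1.71, 1.59 and 1.59 peaks per 100 kb, and the mesenchymal members exceeded them 1.54-fold (1.02 to 2.30), 1.77-fold (1.25 to 2.49), 1.53-fold (1.05 to 2.22) and 1.76-fold (1.23 to 2.51). These 18 include ITGA10, ITGA7 and LAMA2, described here as genes of cartilage or muscle. The excess may depend on how the groups were drawn, and other divisions were not tested.

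Counting inside the genes alone left few peaks at the leukocyte members. The 7 leukocyte genes themselves held 4 peaks of full-length FOXA1 and 3 of CTD-deleted FOXA2, and 0 in the other 6 lists. These are 1.21 and 0.910 peaks per 100 kb of gene. The 12 mesenchymal genes held 25, 39, 22 and 29 peaks of the FOXA1 and FOXA2 lists, or 2.23, 3.48, 1.97 and 2.59 per 100 kb of gene. The remaining members had 1.14, 1.75, 1.70 and 1.58, so for full-length FOXA1 the 7 leukocyte genes did not lie below them. The 18 other leukocyte genes had 2.06, 2.74, 1.83 and 2.97 per 100 kb of gene, above the mesenchymal genes for CTD-deleted FOXA2. In each of these lists the 18 lay closer to the mesenchymal genes than the 7 leukocyte members did. Over all members 52.8% (43.4 to 61.9), 58.2% (49.9 to 66.0), 50.8% (42.2 to 59.4) and 53.4% (44.9 to 61.6) of peaks lay inside a member gene, and member genes make up 53.7% of the window length. Peaks were thus spread over genes and flanks about as the length is.

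Laminin alpha chains ranged widely. LAMA5, a chain of most adult basement membranes, had the highest density with 5, 2, 9 and 4 peaks in the FOXA1 and FOXA2 lists, 12.6 per 100 kb, but its window also covers ADRM1, OSBPL2 and CABLES2. The strongest full-length FOXA1 peak at any member, 18.4 at chr20:62277901-62279171, was in this window inside OSBPL2. LAMA3, the chain of laminin in skin, was lowest with 1, 0, 0 and 1 peaks over 366 kb, 0.547 per 100 kb. LAMA2, the chain of muscle and nerve basement membranes, had 15, 18, 14 and 12 peaks, and LAMA1, the embryonic chain, had 3, 4, 6 and 10. LAMA4, found in the basement membranes of vessels and mesenchymal tissue, had 1, 5, 4 and 4.

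Of the beta and gamma chains LAMC1, the gamma chain of most laminins, was highest with 6, 8, 7 and 8 peaks (13.1 per 100 kb). LAMB1 followed with 4, 8, 4 and 7 (12.8 per 100 kb). LAMB1 and LAMB4 are neighbours, and 3, 4, 3 and 4 of these peaks lay in both windows. LAMB2, the beta chain of kidney and synapse, had 4, 1, 5 and 2, all of them outside the gene of 11.9 kb, and LAMB3, the beta chain of skin laminin, had 0, 1, 2 and 1. LAMC3 had 0 peaks in all 8 lists over a window of 185 kb. LAMC3 and the leukocyte gene ITGAM were the 2 members with no peak anywhere.

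**Figure D3:**
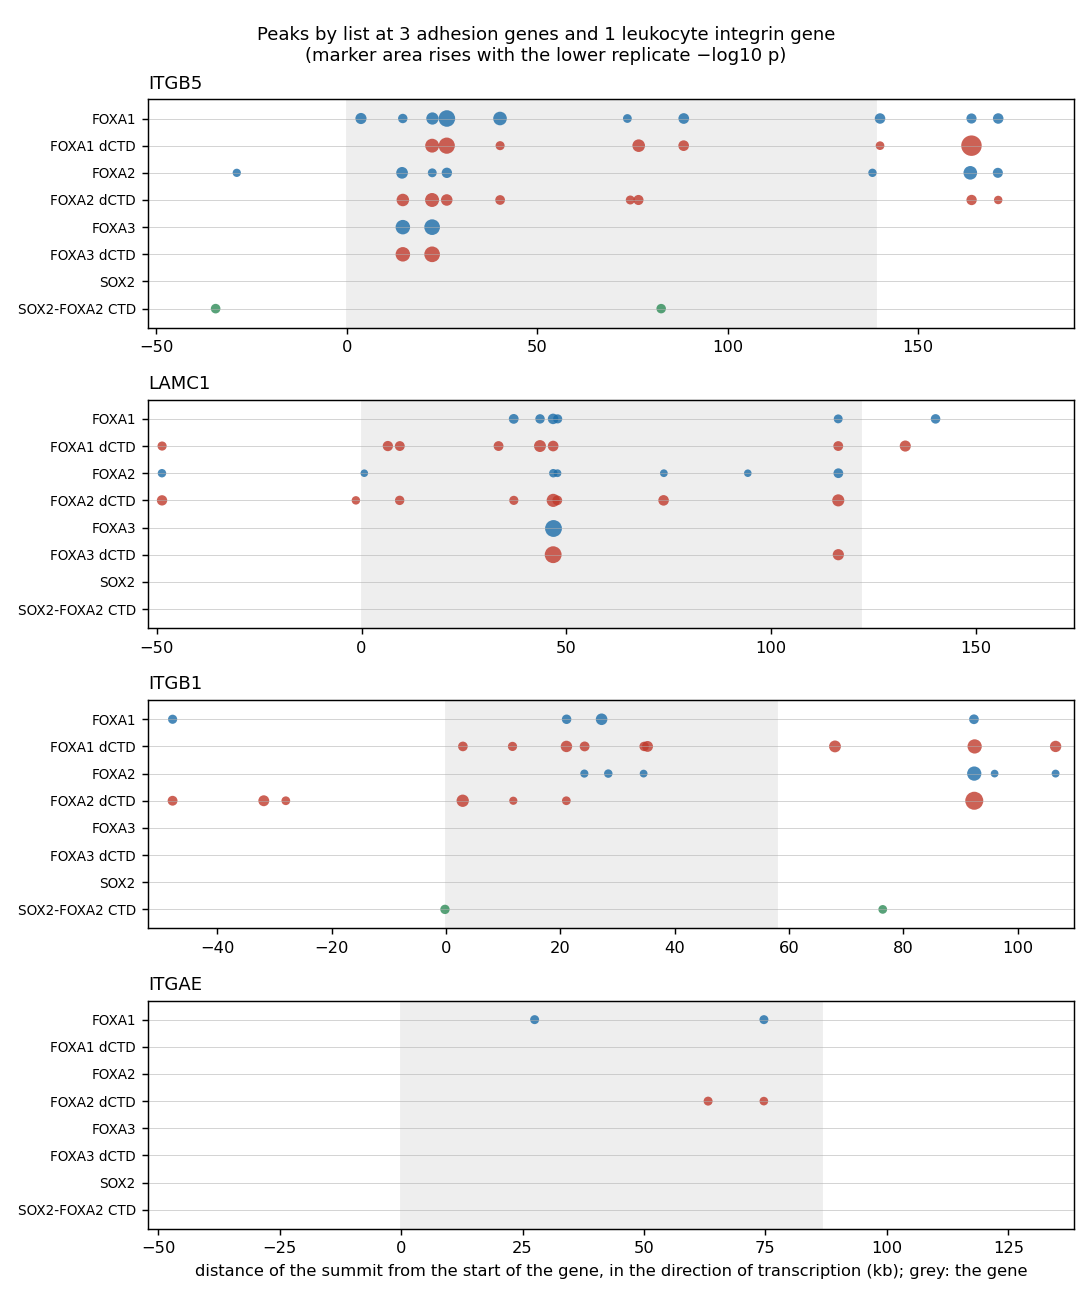
Position of each peak summit (distance from the gene's start in the direction of transcription, kb) in the windows of ITGB5, LAMC1, ITGB1 and ITGAE, with 1 row per combined list; the grey band is the gene and the marker area rises with the lower replicate −log10 p. ITGB5, LAMC1 and ITGB1 have peaks inside the gene and in its flanks in the FOXA1 and FOXA2 lists, and ITGAE has 2 peaks in each of 2 lists.

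Deletion of the CTD was compared with full length within each factor. At the members the CTD-deleted FOXA1 list had 1.31 times as many peaks as the full-length list (1.01 to 1.69), and over all peaks the ratio was 1.35. For FOXA2 it was 1.06 (0.821 to 1.36) at the members and 1.18 over all peaks. These ratios depend on where each list was cut. With both lists held to the tighter limit, members had 32 full-length and 141 CTD-deleted FOXA1 peaks (ratio 4.41, 2.98 to 6.69, with 4.38 over all peaks), and 87 and 133 FOXA2 peaks (ratio 1.53, 1.16 to 2.03, with 1.69 over all peaks). With equal numbers of the strongest peaks, a comparison added after the data were seen, the ratio was 0.935 (0.706 to 1.24) for FOXA1 and 0.881 (0.676 to 1.15) for FOXA2. Equal numbers fix the ratio over all peaks near 1 by construction (1.00 for FOXA1 and 0.999 for FOXA2). In that setting both member intervals included 1, so no direction was shown. Under each setting the interval at the members included the ratio over all peaks.

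Single members differed in both directions. Among the 20 members with at least 5 FOXA1 peaks in the pair, 9 had at least 2 times as many after CTD deletion (ITGA1, ITGA4, ITGAV, ITGB1, ITGB6, ITGB8, LAMA4, LAMB1 and LAMB4), where 19.6% of all such genes did. A further 3 had at least 2 times as many at full length (ITGB4, LAMA5 and LAMB2), where 10.2% of such genes did. ITGAV, with 2 and 10 peaks, and ITGB8, with 5 and 11, had the largest excess after CTD deletion, and ITGB4, ITGB5, LAMA5 and LAMB2 had 3 fewer peaks each. At equal numbers of the strongest peaks only 3 of 18 members passed 2-fold after CTD deletion (ITGA1, ITGAV and ITGB6), where 8.59% of genes did, and ITGAV had 2 and 7. In that comparison 4 members passed 2-fold at full length (ITGA11, ITGB5, LAMA5 and LAMB2), where 20.4% of genes did. For FOXA2, 0 of 21 members reached 2-fold after CTD deletion (16.8% of genes) and 3 did so at full length (ITGB7, LAMA5 and LAMB2; 11.2% of genes). With equal numbers of the strongest FOXA2 peaks ITGB8, LAMA2 and LAMB4 joined these 3, making 6 of 21 (17.1% of genes), and ITGB8 had 7 and 1. With both lists held to the tighter limit, 15 of 18 members passed 2-fold after CTD deletion for FOXA1, where 82.5% of genes did, and 0 at full length. For FOXA2 6 of 19 did so after deletion (ITGA6, ITGA9, ITGA11, ITGB1, LAMB1 and LAMC1; 38.8% of genes) and 1 at full length (ITGB7; 2.86% of genes). With all peaks, LAMA5, with 9 full-length and 4 CTD-deleted FOXA2 peaks, and ITGB7, with 5 and 1, had the largest excess at full length, and LAMA1, with 6 and 10, had the largest after deletion, followed by ITGA5, ITGA11 and LAMB1 with 3 more peaks each. LAMA5 and LAMB2 had more peaks at full length for both factors. Replicate lists were not used here for these pairs, so none of these differences could be held against replicate spread.

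**Figure D4:**
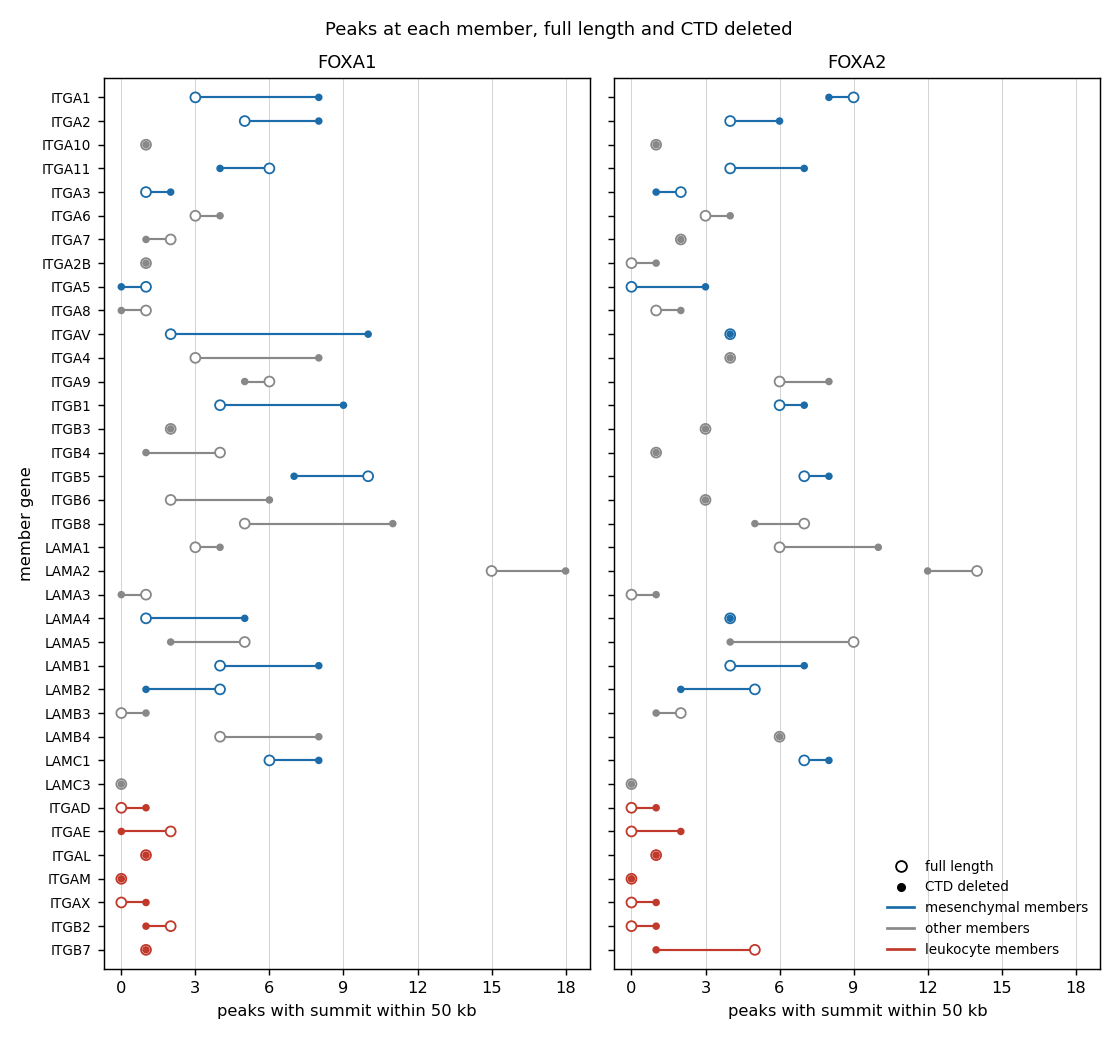
Peaks within 50 kb of each member (horizontal axis) for full-length (open circles) and CTD-deleted (filled circles) FOXA1, left, and FOXA2, right; blue marks mesenchymal, grey other and red leukocyte members. ITGAV goes from 2 to 10 and ITGB8 from 5 to 11 in the FOXA1 panel, while LAMA5 goes from 9 to 4 in the FOXA2 panel.

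Both forms of a factor marked partly different sites. Of the full-length FOXA1 peaks at members 54.6% (Wilson 95% interval 45.2 to 63.7) overlapped a CTD-deleted peak by at least 1 bp, and the reverse held for 41.8% (34.0 to 50.1) of the CTD-deleted peaks. Over all peaks the shares were 56.0% and 41.7%. For FOXA2 they were 44.4% (36.1 to 53.2) and 41.4% (33.3 to 49.9) at members and 51.3% and 43.2% over all peaks. At ITGAV, 2 of the 10 CTD-deleted FOXA1 peaks lay at sites also held by the full-length list, at 14143 and 67760 bases after the nearest annotated start. At the ITGB5 window, by contrast, 6 of the 7 CTD-deleted FOXA1 peaks lay at such sites.

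Overlapping peaks of the 8 lists were merged into 291 sites at the members, of which 273 held a FOXA1 or FOXA2 peak. Peaks of a merged site can form a chain and need not all overlap one another. Of these 273, 50.2% were in 1 of the 4 FOXA1 and FOXA2 lists, 22.3% in 2, 19.4% in 3 and 8.06% in all 4 (5.38 to 11.9). Over the genome the shares were 54.5%, 22.3%, 14.0% and 9.17%. The leukocyte windows held 14 of the sites, 0 of them in all 4 lists (0 to 21.5%), and the mesenchymal windows held 120, 11 of them in all 4 (9.17%).

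**Figure D5:**
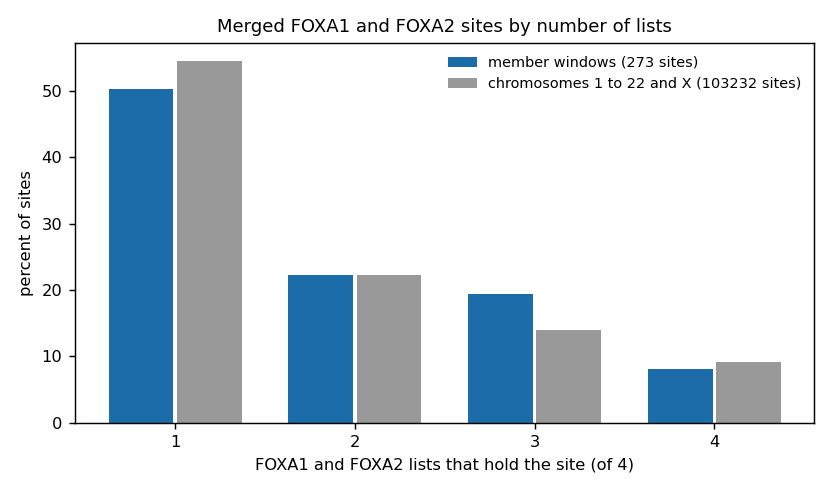
Share of merged FOXA1 and FOXA2 sites (vertical axis, percent) found in 1, 2, 3 or 4 of the 4 FOXA1 and FOXA2 lists (horizontal axis), for the 273 sites in member windows (blue) and the 103232 sites of the genome (grey). Sites in 1 list make up 50.2% at the members and 54.5% of the genome, and sites in all 4 lists 8.06% and 9.17%.

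At the members 4 of the 291 sites (1.37%) were held by at least 6 of the 8 lists, and over the genome 2.10% of sites were. In ITGA10 the site chr1:145891443-145892888 was found in all 6 FOXA lists, with a strength of 9.38 and 6.36 for full-length and CTD-deleted FOXA1, 5.92 and 12.2 for FOXA2, and 25.8 in both FOXA3 lists, where it was the strongest peak at any member. In LAMC1 the site chr1:183069538-183070629 had strengths of 4.33, 4.49, 2.34, 7.53, 13.2 and 13.2 in the same order. In ITGB5 the site chr3:124878317-124879422 had strengths of 6.35, 8.51, 2.70, 8.66, 11.2 and 11.2. All 3 lay inside the member gene. The merged site chr20:62301239-62303917 held peaks of all 8 lists, SOX2 (strength 4.08) and the fusion included. Its peaks do not all overlap: the FOXA3 peaks lay at chr20:62301828-62302254 and the SOX2 peak at chr20:62302534-62303095. The summits were 5842 bases or more from LAMA5, and 1 of full-length FOXA2 lay in ADRM1, a proteasome subunit gene. At these sites both FOXA3 lists gave the same peak with the same values, so they are not separate observations.

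The other FOXA3 peaks at members were found at ITGA3, ITGA11, ITGB3, ITGB4, LAMA4 and a further site of ITGB5, with strengths of 6.21 to 10.8. The CTD-deleted FOXA3 list added a peak in LAMC1 (5.10) and a peak in LAMA1 (5.61). Of the 10 full-length FOXA3 peaks at members, 10 overlapped a CTD-deleted FOXA2 peak (75.0% of all full-length FOXA3 peaks did), 9 a full-length FOXA2 peak (59.5%), 8 a full-length FOXA1 peak (56.1%) and 7 a CTD-deleted FOXA1 peak (69.8%). With 10 peaks at members, the intervals are wide: 72.2% to 100%, 59.6% to 98.2%, 49.0% to 94.3% and 39.7% to 89.2% in the same order.

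Of the 23 fusion peaks at members 4 overlapped a CTD-deleted FOXA2 peak, or 17.4% (6.98 to 37.1), beside 17.0% of all fusion peaks, and 3 overlapped a full-length FOXA1 peak, or 13.0% (4.54 to 32.1), beside 16.4%. Both SOX2 peaks at members overlapped a full-length FOXA1 and a full-length FOXA2 peak, as did 35.6% and 28.4% of all SOX2 peaks. The 2 SOX2 peaks were near LAMA5 (4.08, at the ADRM1 site above) and near LAMB2, at chr3:49092621-49093746 inside QRICH1 with a strength of 3.24, and the fusion was listed at both. The fusion list had 21 further peaks, at LAMA1 (4), ITGA11 (3), ITGB1, ITGB5 and LAMA2 (2 each) and at ITGA1, ITGAV, ITGB4, ITGB8, LAMA3, LAMA4 and LAMB3 (1 each), besides a second peak at the LAMA5 site. The strongest were in ITGAV, chr2:186616796-186617408, and in LAMA4, chr6:112239753-112240691, both at 5.31. Of 1365 SOX2 peaks on these chromosomes, only 91 lay within 50 kb of any protein-coding gene. The fusion had 11.5 times as many peaks at members as SOX2 (2.84 to 101). Over all peaks, most of which lie far from genes in the SOX2 list, the ratio was 5.75. Within 50 kb of protein-coding genes there were 4165 fusion and 91 SOX2 peaks, a larger excess than at members. Members had 5.62 times (0.671 to 20.9) the density of all genes for SOX2 and 1.41 times (0.894 to 2.12) for the fusion. The ratio of 11.5 rests on 2 SOX2 peaks and on a fusion list cut at an IDR of 0.912. At the stricter limit of the pair, or with equal numbers of the strongest peaks, it was 1.00 (0.0725 to 13.8 in both settings). That interval still includes 11.5, so these settings do not show whether the excess was lost.

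Few members had a peak at a start site. RefSeq promoter entries, which run from 250 bases before to 50 after a start, were given for 26 of the 37 members (33 entries), and start sites were taken from them. A summit lay within 1 kb of a start at ITGB5 for full-length FOXA1 (1 of 26 members, 10.7% of all genes), at ITGAV for CTD-deleted FOXA1 (1, 4.29%), at ITGA6, ITGAV, ITGB5 and LAMC1 for full-length FOXA2 (4, 11.3%) and at ITGAV and ITGB5 for CTD-deleted FOXA2 (2, 10.4%). It was ITGB5 in both FOXA3 lists (1.76% and 2.17%), ITGB1 for the fusion (4.63%) and 0 members for SOX2 (0.177%). At ITGB5 the summits were 492 to 698 bases after the start, with strengths of 3.21 for full-length FOXA1, 5.67 and 6.68 for full-length and CTD-deleted FOXA2, and 9.42 in both FOXA3 lists. At ITGB1 the fusion summit was 163 bases before the start, with a strength of 3.16.

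Peaks overlapped 4 of the 33 promoter entries, 2 of ITGA6 and 1 each of ITGB5 and ITGB1. Forkhead words (TGTTTAC and TGTTTGC) and SOX words (ACAAAG and ACAATG) were looked for on both strands. TGTTTAC was in 0 of the 33 member entries and in 3.42% of all 34961 entries, and TGTTTGC was in 1 (ITGA2) and in 3.88%. ACAAAG was in 3 (ITGAV, LAMB4 and ITGB7) and in 16.1%, and ACAATG in 1 (LAMB3) and in 10.7%. The sequences below are the ITGB5 and ITGB1 entries that a peak overlapped, the first ITGA6 entry, the ITGA2 entry with the only forkhead word, and the ITGAV entry with SOX words on both strands; capitals mark those words. They are RefSeq sequences of GRCh38.p14, printed 5′ to 3′ on the strand of the gene: ITGB5 at chr3:124887316-124887615 on the minus strand, ITGB1 at chr10:32958181-32958480 on the minus strand, ITGA6 at chr2:172427086-172427385 on the plus strand, ITGA2 at chr5:52989102-52989401 on the plus strand and ITGAV at chr2:186599955-186600254 on the plus strand.
ITGB5: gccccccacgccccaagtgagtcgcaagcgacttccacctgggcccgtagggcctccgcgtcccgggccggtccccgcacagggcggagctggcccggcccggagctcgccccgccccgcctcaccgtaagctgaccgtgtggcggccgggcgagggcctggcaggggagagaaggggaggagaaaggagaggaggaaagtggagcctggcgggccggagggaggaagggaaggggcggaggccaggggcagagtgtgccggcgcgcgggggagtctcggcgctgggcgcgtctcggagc
ITGB1: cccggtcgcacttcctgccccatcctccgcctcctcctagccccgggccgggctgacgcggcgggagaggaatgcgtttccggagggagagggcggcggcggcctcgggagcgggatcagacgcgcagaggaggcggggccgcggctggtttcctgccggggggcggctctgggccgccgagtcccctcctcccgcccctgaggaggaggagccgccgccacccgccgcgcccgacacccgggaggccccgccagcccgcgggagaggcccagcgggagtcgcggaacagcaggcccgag
ITGA6: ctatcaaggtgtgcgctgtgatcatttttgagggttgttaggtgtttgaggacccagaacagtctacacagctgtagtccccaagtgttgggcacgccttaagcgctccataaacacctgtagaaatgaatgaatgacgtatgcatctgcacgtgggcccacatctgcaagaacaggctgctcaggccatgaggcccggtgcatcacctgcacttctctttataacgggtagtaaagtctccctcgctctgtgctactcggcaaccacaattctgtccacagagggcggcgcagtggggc
ITGA2: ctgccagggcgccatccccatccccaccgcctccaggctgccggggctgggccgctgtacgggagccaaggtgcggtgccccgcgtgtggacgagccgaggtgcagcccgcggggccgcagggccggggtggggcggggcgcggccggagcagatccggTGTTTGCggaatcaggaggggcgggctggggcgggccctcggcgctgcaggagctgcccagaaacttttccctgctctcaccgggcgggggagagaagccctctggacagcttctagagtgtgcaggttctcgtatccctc
ITGAV: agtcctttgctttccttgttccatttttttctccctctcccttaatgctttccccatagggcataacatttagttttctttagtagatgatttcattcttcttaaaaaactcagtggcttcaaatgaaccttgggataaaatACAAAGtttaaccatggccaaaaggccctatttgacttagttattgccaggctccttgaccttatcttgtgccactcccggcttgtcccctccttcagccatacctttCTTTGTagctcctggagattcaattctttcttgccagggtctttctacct
The overlapped entries of ITGB5, ITGB1 and ITGA6 hold none of the 4 words. ITGA2 has TGTTTGC from 91 bases before the start, and no peak of any list overlapped its entry. The ITGAV entry belongs to a start inside the gene, and no peak overlapped it either. A word or its lack in these windows says nothing of binding elsewhere.

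Genes around the integrin pathway gave a broader measure. The 16 focal adhesion genes, such as TLN1, VCL and PTK2, which link integrins to actin, had 1.85, 2.09, 2.32 and 2.91 peaks per 100 kb in the FOXA1 and FOXA2 lists, and 15, 12, 13 and 14 of the 16 had a peak. The 12 genes for matrix ligands and basement membrane, such as FN1, NID1 and HSPG2, had 1.37, 1.52, 1.28 and 2.04, and 10, 9, 11 and 11 of the 12 had a peak. The 6 genes for ligands of leukocyte integrins, such as ICAM1 and VCAM1, had 1.26, 1.54, 0.701 and 1.68 from 9, 11, 5 and 12 peaks. Over all genes the densities were 1.34, 1.67, 1.57 and 1.87.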

How the data were processed

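Peak lists came from Flag ChIP-seq of U2OS lines, 17 samples in all. The submitters' processing notes name hg38, Trim Galore, FastQC 0.10.1, Bowtie2 2.4.4, SAMtools 0.1.18, MACS2 and deepTools 2.4.1. Versions of MACS2 and the IDR program, the control and the IDR limits chosen are not given in the sources used here. Of 14 deposited files 10 were used and 4 are byte-for-byte copies. In the 20-column combined lists the score deposited by the authors is a scaled IDR (830 stands for an IDR of 0.01), the limits given are those of the lowest score in each list, and the −log10 p-value of the peak in each replicate is the authors' own, in columns that carry no replicate number. Fold enrichment, a ratio, was taken only from the 2 first-replicate lists deposited for SOX2 and the fusion, since in the combined lists that column is a placeholder. A stated doxycycline dose of 500 ng/ml was used; the extraction protocol in the labels gives another volume unit.

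From these lists peaks were counted in windows of 50 kb on each side of each RefSeq gene, merged where they overlap (33 windows at the members), with Python 3.11.15, numpy 2.4.6, pandas 2.3.3 and scipy 1.17.1. Intervals are exact Poisson (densities), exact conditional (ratios) and Wilson (shares). The counting was tested on simulated peaks. No p-value was computed, since each group has 1 list. Genes named are, by rule, the extremes of each class by summed FOXA1 and FOXA2 density, all leukocyte members, members with a FOXA3, SOX2 or fusion peak or a peak at a start, sites in at least 6 lists, the strongest peak per list and the largest excesses per pair; other members are given by their counts. Start sites were counted only for the 26 members with a promoter entry, not at either end of the remaining genes. Members, lists and the mesenchymal and leukocyte groups were chosen with earlier results of these data known. Tried as alternatives were other windows, IDR limits, overlap rules, list lengths and first-replicate lists. No genome was used, so exons, introns and peak sequences are not reported.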

Additional observations from a re-analysis of the deposited data

Results flagged for a closer look

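ITGA1 and ITGB8 differed in direction between FOXA1 and FOXA2. After CTD deletion ITGA1 had 5 more FOXA1 peaks and a change of -1 in FOXA2 peaks, and ITGB8 had 6 more FOXA1 peaks and a change of -2 in FOXA2 peaks. With both lists of a pair held to the tighter IDR limit this difference in direction was gone: FOXA2 peaks went from 6 to 8 at ITGA1 and from 3 to 5 at ITGB8, and FOXA1 peaks from 1 to 8 and from 3 to 11. Each value compares 1 list with 1 list, and the difference between the factors was not tested.

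The lists of the first replicate alone, which enter no comparison above, held 44 SOX2 peaks and 111 fusion peaks at the members, against 2 and 23 in the combined lists. They were also longer, with 13977 SOX2 and 42705 fusion peaks in all against 1375 and 7895. In them the mesenchymal windows had 24 SOX2 peaks and the leukocyte windows 1, a density ratio of 9.20 (1.50 to 378), and for the fusion 50 and 1, a ratio of 19.2 (3.29 to 772). A peak lay near 18 members for SOX2 (30.8% of all genes) and near 25 for the fusion (67.0% of all genes). The median fold enrichment at members, as the authors' peak lists give it, was 3.36 for SOX2 and 3.23 for the fusion, beside 3.20 and 3.06 over all peaks. Both combined SOX2 peaks at members and 17 of the 23 fusion peaks were found again in the first-replicate list.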

How the results depend on the processing

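Of 103 alternative values for 33 results, 66 stayed within the interval of the value given above (within 1.5 times it for counts of members). Another 36 moved beyond it. The last 1 fell from above 1 to below 1, with an interval that included 1. The mesenchymal to leukocyte ratio stayed above 1 wherever it could be computed: 2.54 to 3.00 for full-length FOXA1, 4.34 to 15.9 for CTD-deleted FOXA1, 2.94 to 3.61 for full-length FOXA2 and 3.13 to 5.05 for CTD-deleted FOXA2. With the first-replicate list, of 42705 peaks against 7895, the fusion's mesenchymal excess was 2.11 peaks per 100 kb in place of 0.489. The fusion density over all genes was also higher in that list, 1.38 per 100 kb against 0.224, so the larger excess comes with a longer list.

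At the stricter IDR limit of each pair the ratio of member peaks was 4.41 for FOXA1, 1.53 for FOXA2 and 1.00 (0.0725 to 13.8) for SOX2. At an IDR of 0.01 it was 8.75 for FOXA1. With equal numbers of the strongest peaks, chosen after seeing the data, it was 0.935 (0.706 to 1.24) for FOXA1, the value that fell below 1. For SOX2 it was 1.00 (0.0725 to 13.8) in that setting and 2.52 in the first-replicate lists. The cause was not tested, but each of these settings changes how many peaks enter. The full-length FOXA1 share of peaks found in the partner list was 44.4% at a reciprocal overlap of 50%, 41.7% with summits within 100 bp, 75.0% at the stricter limit and 100% at an IDR of 0.01, and the CTD-deleted share 31.9%, 17.0% and 11.4% under the last 3. The full-length FOXA2 share was 34.9%, 34.1% and 55.2% under the first 3, and the CTD-deleted share 33.1%, 32.3% and, at an IDR of 0.01, 0%. That 0% was fixed in advance, because the full-length FOXA2 list has no peak at that limit. Without the identical rows the CTD-deleted FOXA3 share was 0%. This value was also fixed in advance, because all 10 full-length FOXA3 peaks at members are identical rows and none was left to overlap. At the stricter limit both SOX2 shares were 0% (0 to 65.8).

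At an IDR of 0.01 a peak lay near 8 members for full-length FOXA1, 8 for CTD-deleted FOXA2 and 0 for SOX2 and the fusion, and SOX2 had 1 member with windows of 10 kb. Starts with a summit within 2.5 kb numbered 4, 5, 7 and 6 in the FOXA1 and FOXA2 lists in the order used above. At an IDR of 0.01 the starts within 1 kb were 0 for full-length and CTD-deleted FOXA1, 1 for CTD-deleted FOXA2 and 0 for the fusion. A further 13 values could not be computed because the count to divide by was 0 or the list was empty; among them the mesenchymal against leukocyte peaks were 28 and 0 for full-length FOXA2 with windows of 10 kb, and 3 and 0 for full-length FOXA1 and 11 and 0 for CTD-deleted FOXA2 at an IDR of 0.01. No paired analysis was possible because each group has 1 combined list, and no replicate could be left out, except that SOX2 and the fusion have the first-replicate lists used above. Sequencing depth is unknown, so a gene at 0 peaks may lie below what the list could detect.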
